A study of Drosophila melanogaster with 20 samples.

Results

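The genes of DNA replication, of the step into S phase and of mitosis were examined by neuRNA-seq, a measurement of newly made RNA, in *Drosophila* Kc167 cells. A list of 38 FlyBase symbols defined the set. It held 17 replication genes, 9 genes that control the G1/S step and 12 mitosis genes, out of 17659 gene rows in the count table. Of the 38 symbols, 37 had a row and 36 had enough counts to be tested. *Orc1*, which encodes a subunit of the origin recognition complex, had no row under its current identifier (FBgn0286788) and was not analysed here. *dbf4* is an older symbol of *chif* (FBgn0000307), whose product activates the replication kinase Cdc7. It had 0 counts in all 4 libraries. The annotation used here is later than the one used for counting. It gives *chif* and *Hyls1* the same 10199 bp of chromosome 2L, 16342430 to 16352628 on the minus strand. A read on both genes of 1 strand was counted for neither, but whether this accounts for the 0 counts was not tested.

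Kc167 is a cell line of female embryonic origin with features of hemocytes, the blood cells of the fly, so every library came from 1 line and no tissue or animal was compared. Cells of the GAF knockdown (replicates 2 and 3) received dsRNA against GAF, the GAGA factor, a transcription factor that binds DNA and is the product of *Trl*. Cells of the Mi-2 knockdown (replicates 1 and 2) received dsRNA against Mi-2, an ATP-dependent chromatin remodeler. Both groups were fed 0.2 mM 5-ethynyl uridine (EU) for 1 h so that the labelled RNA could be captured and sequenced, and no other treatment is given for either. The 16 remaining samples of the series, mock treatment and GAF knockdown replicate 1 included, were not analysed here, so that no value below assigns a change to either knockdown on its own.

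Before S phase, the origin recognition complex marks the sites where replication can start, and Cdt1 brings the MCM helicase to them. Cyclin E with Cdk2 and the E2F transcription factors drive cells into S phase, while retinoblastoma proteins and Cdk inhibitors hold them back. Cyclins A and B with Cdk1 then start mitosis, Polo and Aurora kinases build the spindle, and a checkpoint delays the separation of chromosomes until each is attached. In *Drosophila* cells, many of these genes are activated by E2F or by the Myb-MuvB complex.

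The libraries held 6111424 and 12563919 counts on genes in the GAF knockdown and 3966515 and 5686837 in the Mi-2 knockdown. Levels are given as CPM, a gene's count relative to the TMM-scaled total of its library, in the order replicate 2 and replicate 3 for the GAF knockdown, and replicate 1 and replicate 2 for the Mi-2 knockdown. A gene at 0 may hold up to 3 counts, or 0.236 to 0.487 CPM in the GAF knockdown libraries and 0.542 to 0.757 CPM in those of the Mi-2 knockdown. The smallest count of a tested gene of the set was 61. *Mi-2* had 431 and 436 CPM in the GAF knockdown, against 299.8 and 311 CPM in the Mi-2 knockdown, for a log2 fold change of 0.50 (standard error 0.0931, adjusted p = 0.0109, edgeR's quasi-likelihood test, Benjamini-Hochberg adjusted). *Trl* had 6.97 and 10.9 CPM in the GAF knockdown, against 13.4 and 12.3 CPM in the Mi-2 knockdown, and was not called (log2 fold change -0.51, standard error 0.419, adjusted p = 0.566, same test). The label of the Mi-2 knockdown was thus matched by a modest difference in nascent RNA, and that of the GAF knockdown by a difference within the error. *Trl* had only 43 and 138 counts in the GAF knockdown and 53 and 68 in the Mi-2 knockdown. Protein and mature RNA of the targets were not measured in these libraries, so the depth of either knockdown is not known from them. Of 8 hemocyte markers, *srp*, *Hml* and *ush* each had between 1303 and 2033 CPM in every library, while *gcm* had 0 counts throughout. *NimC1* had 0 and 6 counts in the GAF knockdown and 0 and 2 in the Mi-2 knockdown. *lz* had 11 and 13 counts in the GAF knockdown and 0 and 0 in the Mi-2 knockdown. *He* had 6.81 and 8.26 CPM in the GAF knockdown and 7.07 and 9.03 CPM in the Mi-2 knockdown. The 8 summed to 5871 and 5713 CPM in the GAF knockdown and 5181 and 5453 CPM in the Mi-2 knockdown, and *Pxn* was higher in the GAF knockdown (log2 fold change 0.95). The summed CPM of 4 neuron and glia markers was 182 and 146 in the GAF knockdown, against 328 and 375 in the Mi-2 knockdown, with *brp* lower (-1.40) and *repo* at 0 counts. *elav* was not called (-0.47). *nSyb* had the other sign (0.69) and was not called, with 13 and 28 counts in the GAF knockdown and 0 and 14 in the Mi-2 knockdown. Of 4 germline markers, *nos* was matched to no row. The other 3 summed to 19.3 and 25.3 CPM in the GAF knockdown, against 40.9 and 51.1 CPM in the Mi-2 knockdown. Most of this was *aub*, which was lower in the GAF knockdown (-1.23). *bam* was not called (0.07), and *vas* had 9 and 1 counts in the GAF knockdown and 0 and 0 in the Mi-2 knockdown. Muscle markers summed to 377 to 404 CPM in the GAF knockdown and 395 to 408 CPM in the Mi-2 knockdown. Most of this was *Mef2*, with 369 to 405 CPM over the libraries, while *Mhc* had 2.02 to 11.4 CPM and *Act57B* 0.54 to 1.95 CPM. The 3 fat body markers had 3 counts in all in GAF knockdown replicate 3 and 0 in the other libraries. The part of these markers in the results was not tested.

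None of the 36 tested genes reached an adjusted p under 0.1, the threshold of a call here. The count was 0 with edgeR's quasi-likelihood test and 0 with DESeq2, where 9.46% of all 7826 genes tested were called by edgeR and 11.3% by DESeq2. At an unadjusted p under 0.05, 3 of the 36 passed, which is 8.33%, against 20.1% of all genes tested. These were *Mcm6*, *Mad1* and *polo*, each with a higher level in the GAF knockdown. The median log2 fold change of the GAF over the Mi-2 knockdown was 0.09 over the 36 genes, beside -0.00 over all genes tested. It ran from -0.51 for *Orc6* to 0.49 for *Mad1*. Summed over the genes, the level was 5990.1 and 5997 CPM in the GAF knockdown and 5857 and 5789 CPM in the Mi-2 knockdown. These genes were among the better measured ones, since the median distance from the estimate to the end of its 95% interval was 0.33 on the log2 scale, against 0.52 over all genes tested. For 35 of the 36 the interval lay between -1 and 1, and *Orc6* was the exception. Smaller differences than these intervals could not be seen with 2 libraries in each group. The absence of calls depended on the libraries. With single libraries left out, *CycA*, *Mad1*, *Mcm10*, *Mcm6* and *polo* passed the threshold in some fits. The share of all genes tested that was called changed in those fits as well. The log2 fold change then ranged from 0.18 to 0.33 for *CycA*, 0.39 to 0.62 for *Mad1* and 0.33 to 0.41 for *Mcm6*. For *Mcm10* it ranged from 0.07 to 0.58, and for *polo* from 0.18 to 0.55. In a culture where cells stand in all phases of the cycle, fewer cells in a phase and less transcription per cell cannot be told apart.

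**Figure D1:**
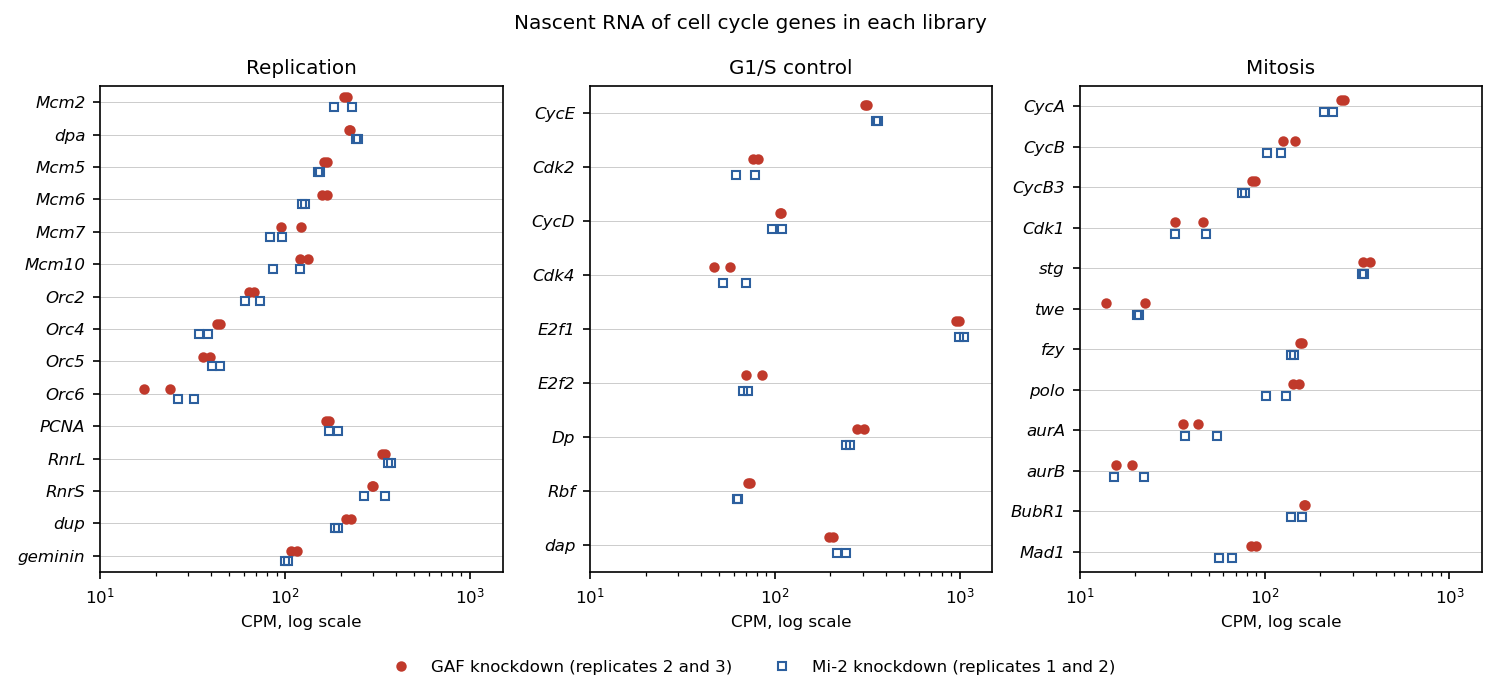
Level in CPM (log scale) of the 36 tested genes in each library, with filled circles for the GAF knockdown and open squares for the Mi-2 knockdown. For most genes the circles and squares lie close together, as for *Mcm2* with 208 and 217 CPM in the GAF knockdown and 232 and 184 CPM in the Mi-2 knockdown.

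Both GAF knockdown libraries lay above both Mi-2 knockdown libraries for 14 of the 36 genes, or 38.9%, against 24.8% of all genes tested. Both lay below for 7 genes, or 19.4%, against 26.0% of all genes tested. The remaining 15 genes overlapped. The 3 parts of the set did not split in the same way. Among the replication genes 5 lay above, 5 below and 5 overlapped. Among the G1/S control genes 2 lay above, 2 below and 5 overlapped. Among the mitosis genes 7 lay above, 0 below and 5 overlapped. The difference between these parts was not tested.

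The MCM helicase unwinds DNA at the fork and is a ring of related subunits. Its 5 measured subunits gave 1 of the clearest positive values of the set and 1 small negative value. *Mcm6* (FBgn0025815) lies on chromosome X between 6674387 and 6677176 (plus strand). It had 1035 and 2015 counts in the GAF knockdown and 492 and 707 counts in the Mi-2 knockdown, or 168 and 158 CPM in the GAF knockdown, against 124 and 128 CPM in the Mi-2 knockdown. Both GAF knockdown libraries were thus above both Mi-2 knockdown libraries, by more than the libraries of either group differed among themselves. The log2 fold change was 0.37 (95% interval 0.09 to 0.66, standard error 0.127), with an unadjusted p of 0.0149 and an adjusted p of 0.129 from edgeR's quasi-likelihood test, Benjamini-Hochberg adjusted, so that *Mcm6* was not called. Over all alternatives its log2 fold change stayed between 0.31 and 0.41 and its adjusted p lay between 0.0609 and 0.685.

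*Mcm5* had 168 and 163 CPM in the GAF knockdown, against 150.1 and 155 CPM in the Mi-2 knockdown, again without overlap but with a log2 fold change of 0.12 (95% interval -0.15 to 0.39). *Mcm7* had 123 and 94.7 CPM in the GAF knockdown and 96.6 and 82.7 CPM in the Mi-2 knockdown. GAF knockdown replicate 3 was below Mi-2 knockdown replicate 1, so the groups overlapped, and the log2 fold change was 0.28 (-0.11 to 0.66). *Mcm2* overlapped as well, with 208 and 217 CPM in the GAF knockdown between the 232 and 184 CPM of the Mi-2 knockdown, and its log2 fold change was 0.03 (-0.26 to 0.33). *dpa*, which encodes Mcm4, had the reverse order, with 224 and 223 CPM in the GAF knockdown, against 243.5 and 249 CPM in the Mi-2 knockdown. Its libraries did not overlap, and its log2 fold change was -0.14 (-0.38 to 0.10). In sum the 5 subunits had 890.1 and 857 CPM in the GAF knockdown and 846 and 799 CPM in the Mi-2 knockdown. Relations among the subunits of 1 ring therefore ran from -0.14 to 0.37, and adjusted p values of the 5 ran from 0.129 to 0.926 by the same edgeR test. *Mcm3*, the remaining subunit, had no row and was not analysed here.

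*Mcm10*, a factor that helps the assembled helicase to start and joins it to DNA polymerase alpha, had 120.2 and 134 CPM in the GAF knockdown and 85.8 and 121 CPM in the Mi-2 knockdown. Only Mi-2 knockdown replicate 1 stood apart, while replicate 2 lay just above the lower GAF knockdown library. Its log2 fold change of 0.29 (95% interval -0.10 to 0.68, adjusted p = 0.409, edgeR's quasi-likelihood test) was 0.07 when Mi-2 knockdown replicate 1 was left out and 0.58 when replicate 2 was. The value of *Mcm10* therefore rested on a single library.

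The measured genes of the origin recognition complex had lower CPM than those of the helicase. *Orc2* had 63.7 and 68.3 CPM in the GAF knockdown and 60.6 and 72.9 CPM in the Mi-2 knockdown, with the first pair inside the second and a log2 fold change of -0.02 (95% interval -0.41 to 0.38). *Orc4* had 42.7 and 44.7 CPM in the GAF knockdown, against 34.1 and 38.4 CPM in the Mi-2 knockdown, and *Orc5* had 35.8 and 39.5 CPM in the GAF knockdown, against 44.4 and 40.3 CPM in the Mi-2 knockdown. Their groups did not overlap and lay in opposite orders, with a log2 fold change of 0.27 (-0.21 to 0.74) for *Orc4* and -0.16 (-0.64 to 0.31) for *Orc5*. *Orc6* (FBgn0023180), on chromosome 2R between 9845458 and 9846485 (minus strand), had the lowest counts of the complex. It had 106 and 302 counts in the GAF knockdown and 128 and 146 counts in the Mi-2 knockdown, or 17.2 and 23.7 CPM in the GAF knockdown, against 32.3 and 26.4 CPM in the Mi-2 knockdown. Both GAF knockdown libraries were lower, but the 2 libraries of each group were also spread. The log2 fold change of -0.51 had a standard error of 0.279 and an interval of -1.13 to 0.12 (adjusted p = 0.363, edgeR's quasi-likelihood test), and ranged from -0.78 to -0.30 as single libraries were left out. Summed over the 4 subunits, the level was 159 and 176 CPM in the GAF knockdown and 171 and 178 CPM in the Mi-2 knockdown. *Orc3* had 0 counts in every library. The annotation used here gives it and *CG34315* the same stretch of 3820 bp on 1 strand. Whether this overlap accounts for the 0 counts was not tested.

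Licensing is set by *dup*, the gene of the loading factor Cdt1, and *geminin*, the gene of its inhibitor. *dup* had 227 and 214 CPM in the GAF knockdown, against 186 and 194 CPM in the Mi-2 knockdown. *geminin* had 116 and 108 CPM in the GAF knockdown, against 99.4 and 103 CPM in the Mi-2 knockdown. Both genes lay above in both GAF knockdown libraries. Neither was called, with a log2 fold change of 0.21 for *dup* (95% interval -0.04 to 0.47, adjusted p = 0.345) and 0.14 for *geminin* (-0.17 to 0.45, adjusted p = 0.635, edgeR's quasi-likelihood test).

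At the fork itself, *PCNA*, the gene of the sliding clamp that holds polymerases on DNA, had 173 and 166 CPM in the GAF knockdown, against 173 and 194 CPM in the Mi-2 knockdown. GAF knockdown replicate 2 and Mi-2 knockdown replicate 1 were almost level. *RnrL* and *RnrS* encode the subunits of ribonucleotide reductase, which makes the DNA precursors. *RnrL* had 345 and 336 CPM in the GAF knockdown, against 362 and 372 CPM in the Mi-2 knockdown, without overlap. *RnrS* had 299 and 297 CPM in the GAF knockdown, inside the 346 and 269 CPM of the Mi-2 knockdown. The log2 fold changes were -0.12 for *PCNA* (95% interval -0.39 to 0.16), -0.11 for *RnrL* (-0.32 to 0.10) and -0.04 for *RnrS* (-0.32 to 0.24). Over the 15 tested replication genes the median was 0.03, with 8 positive and 7 negative values, and the summed level was 2330.3 and 2288 CPM in the GAF knockdown and 2270 and 2230 CPM in the Mi-2 knockdown.

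**Figure D2:**
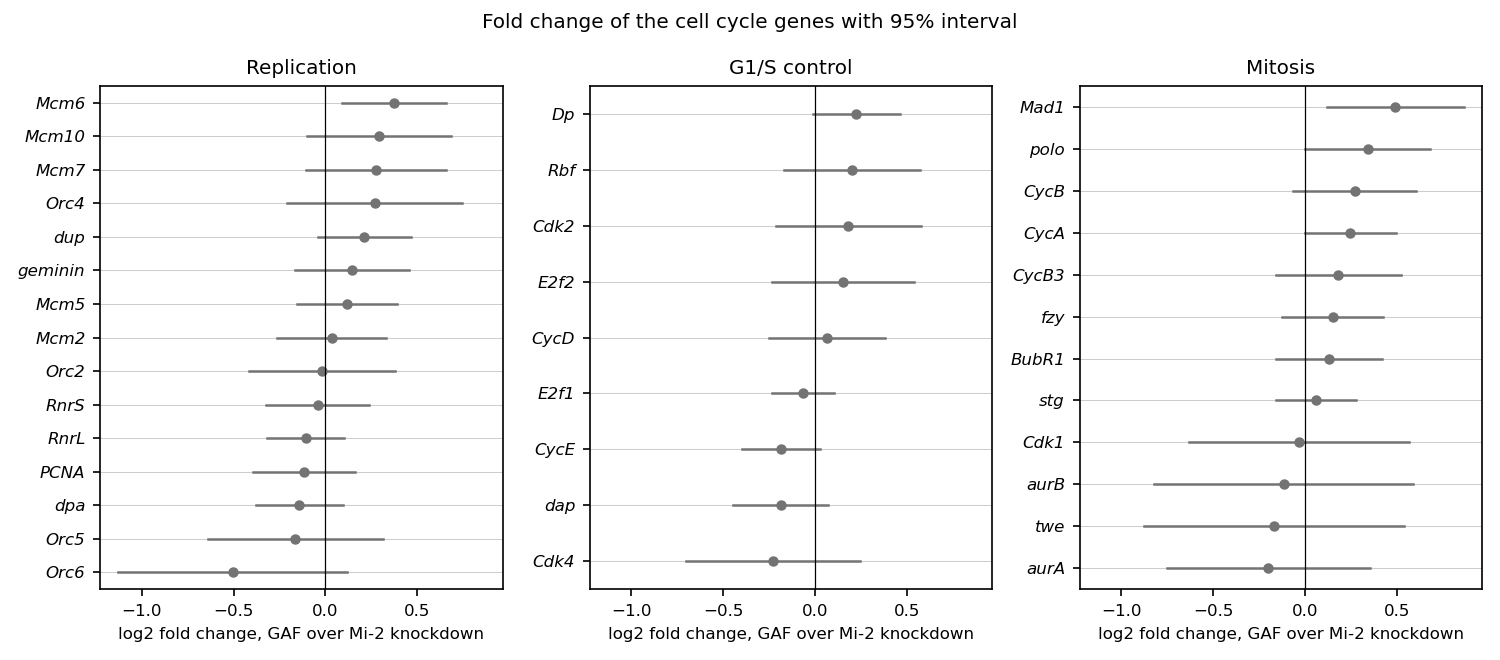
Log2 fold change of the GAF over the Mi-2 knockdown for the 36 tested genes (points) with 95% intervals (lines), ordered within the replication, G1/S control and mitosis genes. None was called, and the intervals of *Mcm6* (0.09 to 0.66), *Mad1* (0.12 to 0.86) and, narrowly, *polo* (0.00 to 0.68) lie to the right of 0.

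The G1/S control genes varied less. *E2f1*, the gene of the E2F activator, had the highest level per library of the set, with 955 and 995 CPM in the GAF knockdown and 987 and 1056 CPM in the Mi-2 knockdown. The groups overlapped, and the log2 fold change of -0.07 had a narrow interval of -0.24 to 0.10. Its gene body is 40568 bp long and only 15.9% exonic, so most of its counted length is intron. With the trend of fold change on gene length removed, its log2 fold change was 0.15, still not called. *E2f2*, the gene of the E2F that acts mainly as a repressor, had 85.3 and 69.6 CPM in the GAF knockdown and 71.4 and 67.5 CPM in the Mi-2 knockdown, with overlap and a log2 fold change of 0.15 (-0.23 to 0.54).

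*Dp*, the gene of the partner that both E2F proteins need to bind DNA, had 279 and 302 CPM in the GAF knockdown, against 256 and 242 CPM in the Mi-2 knockdown. *Rbf*, the gene of a retinoblastoma protein that holds E2F in check, had 73.3 and 71.3 CPM in the GAF knockdown, against 63.1 and 62.8 CPM in the Mi-2 knockdown. For both genes the GAF knockdown libraries lay above without overlap. The log2 fold change was 0.22 for *Dp* (95% interval -0.01 to 0.46, adjusted p = 0.279) and 0.20 for *Rbf* (-0.17 to 0.57, adjusted p = 0.569, edgeR's quasi-likelihood test).

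*CycE*, the gene of Cyclin E, and *dap*, the gene of the inhibitor of Cyclin E and Cdk2, went the other way. *CycE* had 309 and 316 CPM in the GAF knockdown, against 352 and 359.6 CPM in the Mi-2 knockdown. *dap* had 205.5 and 197 CPM in the GAF knockdown, against 242 and 216 CPM in the Mi-2 knockdown. The libraries overlapped for neither gene, and both had a log2 fold change of -0.19, with an interval of -0.40 to 0.02 for *CycE* and of -0.45 to 0.07 for *dap*. *Cdk2*, the gene of the kinase partner of Cyclin E, had 76.6 and 81.2 CPM in the GAF knockdown and 78.5 and 61.4 CPM in the Mi-2 knockdown, with overlap and a log2 fold change of 0.18 (-0.22 to 0.57).

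*CycD* and *Cdk4* encode the cyclin and kinase pair that couples growth to the cycle. *CycD* had 107 and 108 CPM in the GAF knockdown and 109 and 97.1 CPM in the Mi-2 knockdown. *Cdk4* had 57.4 and 47.1 CPM in the GAF knockdown and 52.2 and 69.5 CPM in the Mi-2 knockdown. Both genes overlapped, with a log2 fold change of 0.06 (95% interval -0.25 to 0.38) for *CycD* and of -0.23 (-0.70 to 0.24) for *Cdk4*. Over the 9 genes the median was 0.06 and the summed level was 2148 and 2187 CPM in the GAF knockdown and 2212 and 2233 CPM in the Mi-2 knockdown. At an unadjusted p under 0.05, 0 of the 9 passed, against 20.1% of all genes tested.

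The mitosis genes had the highest median of the set, 0.14, with 8 of 12 values positive. Their summed level was 1512 and 1522 CPM in the GAF knockdown, against 1375 and 1327 CPM in the Mi-2 knockdown. *Mad1* (FBgn0026326), whose product anchors the spindle checkpoint at unattached chromosomes, lies on chromosome 2R between 9288957 and 9291565 (minus strand). It had 552 and 1071 counts in the GAF knockdown and 225 and 368 counts in the Mi-2 knockdown, or 89.5 and 84.2 CPM in the GAF knockdown, against 56.8 and 66.4 CPM in the Mi-2 knockdown. Both GAF knockdown libraries were well above both Mi-2 knockdown libraries. The log2 fold change was 0.49 (95% interval 0.12 to 0.86, standard error 0.168), the largest of the 36, with an unadjusted p of 0.0149 and an adjusted p of 0.129 from edgeR's quasi-likelihood test, Benjamini-Hochberg adjusted. Left-out libraries moved it between 0.39 and 0.62, and its adjusted p over all alternatives lay between 0.0202 and 0.673. *BubR1*, the gene of a kinase of the same checkpoint, had 163 and 166 CPM in the GAF knockdown, against 160.5 and 139.5 CPM in the Mi-2 knockdown, without overlap and with a log2 fold change of 0.13 (-0.16 to 0.42).

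*polo* (FBgn0003124), the gene of Polo kinase, lies on chromosome 3L between 20309654 and 20313466 (plus strand). It had 143 and 154 CPM in the GAF knockdown, against 102 and 131 CPM in the Mi-2 knockdown. The groups did not overlap, but Mi-2 knockdown replicate 1 was lower than replicate 2 by more than the gap between the groups. The log2 fold change was 0.34 (95% interval 0.00 to 0.68, unadjusted p = 0.0483, adjusted p = 0.245, edgeR's quasi-likelihood test), and 0.18 without Mi-2 knockdown replicate 1. The Aurora kinases had lower levels. *aurA*, whose product works at centrosomes, had 36.3 and 43.5 CPM in the GAF knockdown and 55.3 and 37.0 CPM in the Mi-2 knockdown. *aurB*, whose product works at centromeres and in cytokinesis, had 15.7 and 19.2 CPM in the GAF knockdown and 15.4 and 22.4 CPM in the Mi-2 knockdown. Both overlapped and had wide intervals, -0.75 to 0.35 around -0.20 for *aurA* and -0.82 to 0.59 around -0.12 for *aurB*.

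All 3 mitotic cyclin genes lay above in both GAF knockdown libraries. *CycA*, whose product acts from S phase to early mitosis, had 269 and 261 CPM in the GAF knockdown, against 236 and 210.5 CPM in the Mi-2 knockdown. *CycB* had 147 and 126 CPM in the GAF knockdown, against 122 and 104 CPM in the Mi-2 knockdown. *CycB3* had 88.7 and 85.5 CPM in the GAF knockdown, against 75.2 and 78.2 CPM in the Mi-2 knockdown. Separation was narrow for *CycB*, where GAF knockdown replicate 3 and Mi-2 knockdown replicate 1 nearly met. The log2 fold changes were 0.25 for *CycA* (95% interval -0.00 to 0.50), 0.27 for *CycB* (-0.06 to 0.60) and 0.18 for *CycB3* (-0.16 to 0.52), with adjusted p values of 0.251, 0.365 and 0.573 in the same order from edgeR's quasi-likelihood test.

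*Cdk1*, the gene of the kinase these cyclins bind, had 46.6 and 32.6 CPM in the GAF knockdown and 48.2 and 32.7 CPM in the Mi-2 knockdown. Its libraries differed within each knockdown far more than between them, and the log2 fold change of -0.03 had an interval of -0.63 to 0.57. *stg*, the gene of the Cdc25 phosphatase that switches Cdk1 on in dividing cells, had 339.8 and 373 CPM in the GAF knockdown and 338 and 345 CPM in the Mi-2 knockdown, at a log2 fold change of 0.06 (-0.16 to 0.28). *twe*, the gene of the Cdc25 phosphatase known from meiosis, had 13.9 and 22.6 CPM in the GAF knockdown, on both sides of the 20.4 and 20.9 CPM of the Mi-2 knockdown, and its log2 fold change was -0.17 (-0.88 to 0.54). *fzy*, the gene of the Cdc20 activator that starts anaphase, had 159.8 and 156 CPM in the GAF knockdown, against 145 and 139 CPM in the Mi-2 knockdown. It was the 1 gene of these 4 without overlap, with a log2 fold change of 0.15 (-0.13 to 0.43).

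Further genes of the same pathways were read from 4 lists in the same fit. The lists were chosen with earlier results of these data known. Their counts beside those of all genes tested are therefore descriptions and not tests. Of 31 further replication genes 27 were tested, and 1 was called lower and 0 higher by edgeR's quasi-likelihood test. DESeq2 also called 1 lower and 0 higher, and 4 were higher at an unadjusted p under 0.05. Over all genes tested, 6.06% were called lower and 3.4% higher by edgeR, and 542 of 7826 lower and 340 higher by DESeq2. At an unadjusted p under 0.05, 698 of the 7826 were higher and 873 lower. The gene called was *RPA1*, which encodes the large subunit of the protein that coats single-stranded DNA. It had 489.5 and 479 CPM in the GAF knockdown, against 707 and 638 CPM in the Mi-2 knockdown. Both GAF knockdown libraries were well below, with a log2 fold change of -0.47 (standard error 0.0878, adjusted p = 0.0112). *RPA1* was not called without GAF knockdown replicate 2 or without GAF knockdown replicate 3, when 2.33% and 2.27% of all genes tested were called, but its log2 fold change stayed between -0.53 and -0.40 with single libraries left out. The median over the 27 genes was 0.09, beside 0.03 over the replication genes of the set.

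The further mitosis genes differed more than the mitosis genes of the set. Of 39 tested, 11 were called higher in the GAF knockdown, or 28.2%, against 3.4% of all genes tested by edgeR's quasi-likelihood test. None was called lower by edgeR or DESeq2. At an unadjusted p under 0.05, 0 of the 39 were lower, against 873 of all 7826 genes tested. The median log2 fold change was 0.34, 34 of 39 values were positive, and both GAF knockdown libraries lay above both Mi-2 knockdown libraries for 26 of them (66.7%, against 24.8% of all genes tested). Because this list was chosen with earlier results of these data known, its share is no independent sign of an excess. Whether the lists differed was not tested. *ncd*, the gene of a kinesin that gathers spindle poles, had the largest log2 fold change. It had 103 and 113 CPM in the GAF knockdown, against 47.7 and 63.5 CPM in the Mi-2 knockdown, for a log2 fold change of 0.96 (standard error 0.180, adjusted p = 0.0121). *mad2*, the gene of the checkpoint protein that binds Mad1, had 37.8 and 39.9 CPM in the GAF knockdown, against 25.5 and 17.9 CPM in the Mi-2 knockdown, for a log2 fold change of 0.85 (standard error 0.260, adjusted p = 0.0906). *mars*, the gene of a spindle protein related to human HURP, had 125 and 131 CPM in the GAF knockdown, against 70.7 and 77.8 CPM in the Mi-2 knockdown, for a log2 fold change of 0.79 (standard error 0.144, adjusted p = 0.0108). DESeq2 called 10 of the 11 genes and not *mad2*, whose call was also lost with upper-quartile scaling and at equal depth. In all 3 genes the lower GAF knockdown library was well above the higher Mi-2 knockdown library.

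The smallest called log2 fold changes of that list were those of *Cap-G* (0.45), *Cap-D2* (0.49) and *SMC1* (0.53). *Cap-G* and *Cap-D2* encode subunits of condensin, which compacts chromosomes, and *SMC1* encodes a subunit of cohesin, which holds sister chromatids together. *Cap-G* had 307 and 284 CPM in the GAF knockdown, against 218 and 215 CPM in the Mi-2 knockdown. *SMC1* had 146 and 149 CPM in the GAF knockdown, against 87.8 and 117 CPM in the Mi-2 knockdown. The 5 condensin genes listed summed to 916 and 870.2 CPM in the GAF knockdown, against 634 and 667 CPM in the Mi-2 knockdown, and 3 of them were called higher (*glu*, *Cap-D2* and *Cap-G*). The 3 cohesin genes listed summed to 867 and 827 CPM in the GAF knockdown and 833 and 774 CPM in the Mi-2 knockdown. The remaining called genes, outside the rule for naming and named after their values were seen, were *pav* (0.75) and *tum* (0.59), whose products form the centralspindlin complex of cytokinesis, *glu* (0.61), which encodes Smc4, *Klp61F* (0.58), which encodes a kinesin that pushes spindle poles apart, and *asp* (0.55), which encodes a spindle pole protein.

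These calls depended on the settings and on the libraries. In the main test the adjusted p was 0.0817 for *Cap-D2*, 0.0880 for *SMC1* and 0.0930 for *asp* (edgeR's quasi-likelihood test). None of these was called with the trend on gene length removed. At a threshold of 0.05 they and *mad2* were not called. Of the 39 genes, 27 (69.2%) were lower in Mi-2 knockdown replicate 1 than in replicate 2, against 53.3% of all genes tested, and the summed level was 5545 and 5517 CPM in the GAF knockdown and 4483 and 4831 CPM in the Mi-2 knockdown. Without that library, 9 of the 11 genes were still called higher. Without Mi-2 knockdown replicate 2, more genes of the list were called higher, as were more of all genes tested. Without GAF knockdown replicate 2 only *ncd* was called, and without GAF knockdown replicate 3 none was, when 2.33% and 2.27% of all genes tested were called. The log2 fold changes of the 11 genes were positive under each of these settings.

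**Figure D3:**
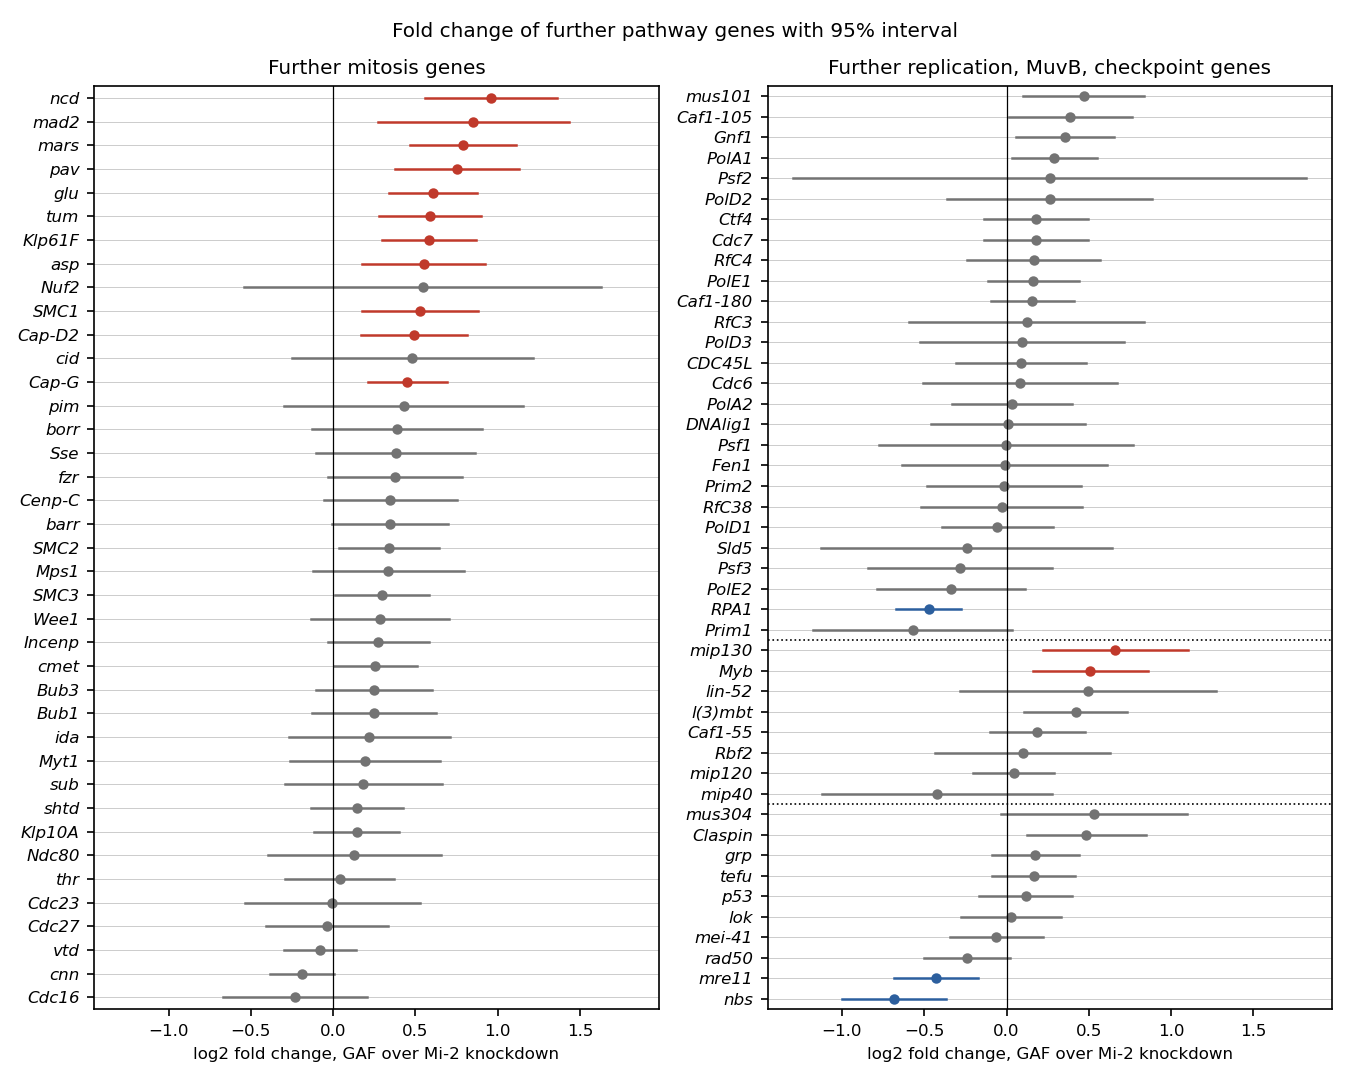
Log2 fold change of the GAF over the Mi-2 knockdown with 95% intervals for 39 further mitosis genes on the left and, on the right from top to bottom between dotted lines, 27 further replication genes, 8 Myb-MuvB and dREAM genes and 10 DNA damage checkpoint genes. Red marks genes called higher in the GAF knockdown and blue marks genes called lower, at an adjusted p under 0.1, and most points on the left, 34 of 39, lie to the right of 0.

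The Myb-MuvB and dREAM complexes activate or repress many cell cycle genes. Of their 8 listed genes 2 were called higher and 0 lower by edgeR's quasi-likelihood test, against 3.4% higher and 6.06% lower of all genes tested. DESeq2 called 3 higher and 0 lower, against 340 higher and 542 lower of all 7826 genes tested. At an unadjusted p under 0.05, 0 of the 8 were lower, against 873 of all 7826 genes tested. *Myb*, the gene of the DNA-binding activator, had 164 and 130.3 CPM in the GAF knockdown, against 96.1 and 109.7 CPM in the Mi-2 knockdown, for a log2 fold change of 0.51 (adjusted p = 0.0964). *mip130*, the gene of a core subunit, had 66.8 and 57.5 CPM in the GAF knockdown, against 38.4 and 40.1 CPM in the Mi-2 knockdown, for a log2 fold change of 0.66 (adjusted p = 0.0872). Neither gene overlapped between the groups. The annotation used here lays 99.2% of *Myb* and 65.4% of *mip130* under other genes of the same strand, so their counts are uncertain. It leaves 25 bp of *Myb* under no other such gene, yet *Myb* had 1010 and 1657 counts in the GAF knockdown. In the Mi-2 knockdown *Myb* had 381 and 608 counts, so this later annotation differs there from the one used for counting. Both calls were lost without either GAF knockdown library, when 2.33% and 2.27% of all genes tested were called, while the log2 fold change stayed between 0.34 and 0.66 for *Myb* and between 0.55 and 0.76 for *mip130* with single libraries left out. Without Mi-2 knockdown replicate 2 more genes of the list were called, as were more of all genes tested. *Myb* was also not called with upper-quartile scaling or with the length trend removed.

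Of the 10 DNA damage checkpoint genes 2 were called lower and 0 higher by edgeR's quasi-likelihood test, against 6.06% lower and 3.4% higher of all genes tested. DESeq2 called 2 lower and 1 higher, against 542 lower and 340 higher of all 7826 genes tested. At an unadjusted p under 0.05, 1 of the 10 was higher, against 698 of all 7826 genes tested. *nbs* and *mre11* encode members of the complex that senses DNA double-strand breaks. *nbs* had 115 and 110.1 CPM in the GAF knockdown, against 199 and 162 CPM in the Mi-2 knockdown, for a log2 fold change of -0.68 (standard error 0.142, adjusted p = 0.0207). *mre11* had 166 and 174 CPM in the GAF knockdown, against 233 and 225 CPM in the Mi-2 knockdown, for a log2 fold change of -0.43 (standard error 0.114, adjusted p = 0.0619). For both genes every GAF knockdown library was below every Mi-2 knockdown library. *rad50*, the gene of the third subunit, named after its value was seen, was not called (log2 fold change -0.24, adjusted p = 0.290). Without GAF knockdown replicate 2 or replicate 3 none of the 10 was called lower, and with single libraries left out the log2 fold change stayed between -0.81 and -0.53 for *nbs* and between -0.47 and -0.39 for *mre11*.

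Levels can be set between genes only per length, as CPM per kb of gene body that lies under 1 gene alone. These lengths come from the annotation used here, which is later than the one used for counting. On that scale the tested genes of the set had a median of 38.1 CPM per kb in the GAF knockdown and 31.6 in the Mi-2 knockdown. Over all genes tested the median was 15.7 in the GAF knockdown and 15.6 in the Mi-2 knockdown. Of the tested genes of the set, 17 were over 90% exonic. The medians were not matched for exon share or length, so they do not rank rates of transcription. *PCNA* came first with 149.7 CPM per kb in the GAF knockdown and 162 in the Mi-2 knockdown. *RnrS* followed with 133 in the GAF knockdown and 137 in the Mi-2 knockdown, then *RnrL* with 117 in the GAF knockdown and 126 in the Mi-2 knockdown. *geminin* had 99.0 in the GAF knockdown and 89.5 in the Mi-2 knockdown, and *stg* had 89.6 in the GAF knockdown and 85.9 in the Mi-2 knockdown. The first 5 places were held by the same genes in both knockdowns. The MCM genes lay between 40.0 and 71.9 CPM per kb in the GAF knockdown and between 33.0 and 71.5 in the Mi-2 knockdown, and the measured ORC genes between 19.9 and 30.1 in the GAF knockdown and 21.6 and 30.5 in the Mi-2 knockdown. At the low end stood *Cdk4* with 8.74 CPM per kb in the GAF knockdown and 10.2 in the Mi-2 knockdown, and *twe* with 7.41 in the GAF knockdown and 8.40 in the Mi-2 knockdown.

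Between neighbours in the order of the GAF knockdown, 17 of 35 pairs were separate in both libraries, while the others, such as *Mcm10*, *Mcm7*, *CycB*, *polo* and *CycA*, overlapped. *E2f1*, first by CPM, was 28th per length in both knockdowns. The largest shift in rank between the knockdowns was 10 places. *Mad1* stood at rank 20 in the GAF knockdown and rank 30 in the Mi-2 knockdown, and *Orc6* at rank 31 in the GAF knockdown and rank 21 in the Mi-2 knockdown. These are the genes with the largest and the smallest log2 fold change of the set.

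**Figure D4:**
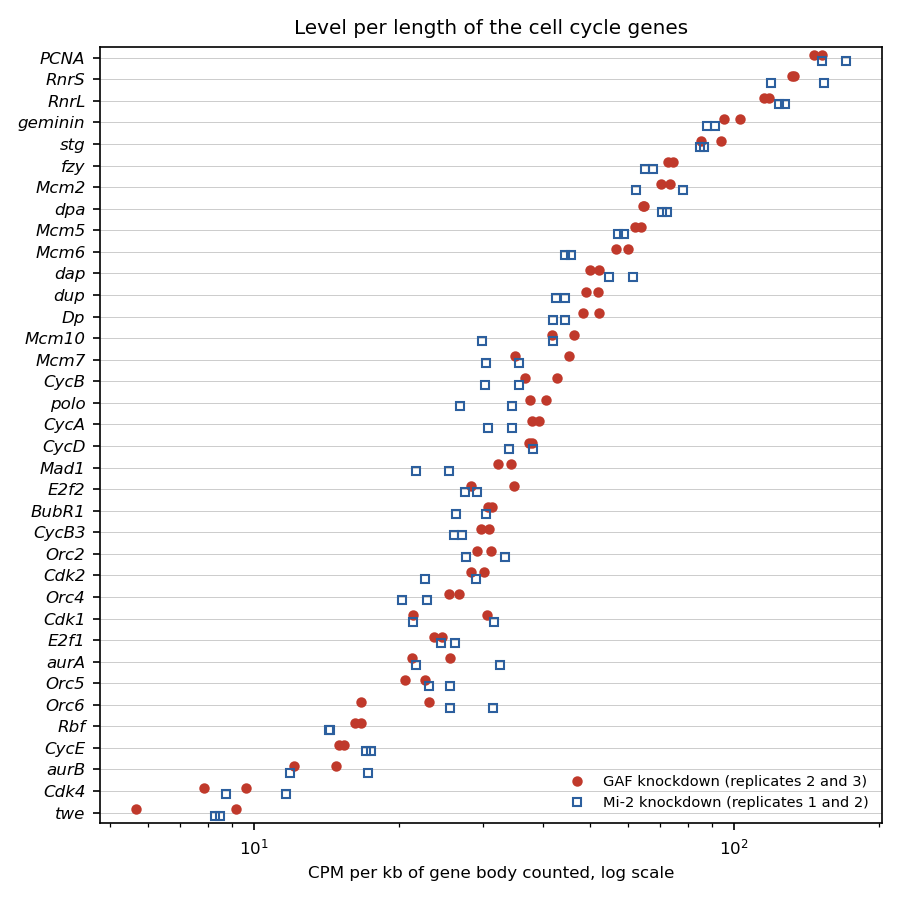
Level per length, in CPM per kb of gene body counted (log scale), of the 36 tested genes in each library, ordered by the mean of the GAF knockdown libraries, with filled circles for the GAF knockdown and open squares for the Mi-2 knockdown. The order runs from *PCNA* (149.7 CPM per kb in the GAF knockdown, 162 in the Mi-2 knockdown) to *twe* (7.41 in the GAF knockdown, 8.40 in the Mi-2 knockdown). The squares follow the circles only broadly, with 13 genes at the same rank and a largest shift of 10 places.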

How the data were processed

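The authors labelled Kc167 cells with EU, captured the labelled RNA and sequenced it as stranded libraries with 50 bp single-end reads. According to the submitters' processing notes and the methods, reads were trimmed with cutadapt 1.10, mapped to dm6 with HISAT2 2.0.4 and counted on the sense strand over whole gene bodies with featureCounts 1.5.0-p3. The authors deposited raw counts per gene, without normalization or pooling. A second table was identical and was not used. The methods' account of neuRNA-seq does not name these knockdowns. The study's primer list holds a pair for dsRNA against *Mi-2*. Nothing says whether replicates came from separate cultures, so p-values measure only the spread between these libraries. The table has 6 columns, named as mock treatment or Dcr-2 knockdown, that match no sample label. They were used in no step, and comparisons with mock treatment were not made.

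Genes were filtered with filterByExpr, scaled by TMM and compared with the quasi-likelihood test of edgeR 4.0.16 (R 4.3.3). Benjamini-Hochberg adjustment ran over all genes tested, with a threshold of 0.1 as in the study's methods. Libraries of 1 knockdown differed by more than counting noise (chi-square per degree of freedom 9.59 for GAF and 9.63 for Mi-2), and each was kept as a replicate. The libraries did not all group by knockdown. By Pearson correlation of log2 CPM, Mi-2 knockdown replicate 2 was closer to GAF knockdown replicate 3 (0.968) than to Mi-2 knockdown replicate 1 (0.955). The GAF knockdown libraries correlated at 0.973 with each other, and at 0.924 and 0.943 with Mi-2 knockdown replicate 1. Alternatives were DESeq2 1.42.0, other scalings, no filter, a threshold of 0.05, equal depth, removal of a trend on gene length, and each library left out. The tests were first run on simulated data. Limits for genes at 0 counts cover counting error alone, because reads without molecular identifiers are not independent molecules.

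The members and lists were chosen with earlier results of these data known. Every member with a row is named. Of the other lists, the called genes at either end of the log2 fold changes are named, 3 from each end, together with *Trl* and *Mi-2*. Names and positions come from an Ensembl annotation of dm6, which matched 17464 of 17659 identifiers and is later than the one used for counting. *Mcm3*, *RPA2* and *RPA3* had no row. A search for promoter motifs was not made.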

Additional observations from a re-analysis of the deposited data

How the results depend on the processing

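Of the alternatives with every library kept, the test, the scaling, the filter, the threshold, the depth and the gene length left the count of members called lower at 0. The count called higher was 0, but 2 (*Mad1* and *Mcm6*) with library size alone and 2 without a filter on low counts. With single libraries left out it ranged from 0 to 4. Among further replication genes, 0 were called higher in the main test, 1 without a filter, 1 at equal depth and 0 to 4 with libraries left out, while the 1 call lower ranged from 0 to 1. The 11 further mitosis genes called higher were 7 at an adjusted p under 0.05 and 0 to 15 with libraries left out, and 8 to 11 under the other alternatives. Called lower, they numbered 0 to 1 with libraries left out. Myb-MuvB and dREAM genes called higher were 2, but 3 with DESeq2, 3 with library size alone, 3 without a filter, 1 with upper-quartile scaling, 1 with the length trend removed, 0 at an adjusted p under 0.05 and 0 to 4 with libraries left out, and those called lower ranged from 0 to 1. DNA damage checkpoint genes called higher were 0, but 1 with DESeq2, 1 with library size alone, 1 without a filter and 0 to 2 with libraries left out. Those called lower were 2, but 1 at an adjusted p under 0.05 and 0 to 3 with libraries left out. With an arm of 1 library, that library is assumed to vary like those of the other arm. The share of all genes tested that was called also changed with libraries left out. The causes of these changes were not tested.

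The median log2 fold change of the replication members, 0.034, was -0.032 with the length trend removed and -0.010 to 0.14 with libraries left out. The sign of single genes near 0 changed with all libraries kept for *Mcm2* (-0.028 at equal depth and -0.032 with the length trend removed), *Orc2* (0.019 with library size alone, 0.0086 without a filter and 0.046 at equal depth), *E2f1* (0.15 with the length trend removed) and *stg* (-0.016 with the length trend removed). With libraries left out, the log2 fold change ranged from -0.11 to 0.21 for *Mcm2*, -0.14 to 0.14 for *Orc2*, -0.20 to 0.15 for *RnrS*, -0.0036 to 0.15 for *CycD*, -0.42 to 0.0071 for *Cdk4*, -0.30 to 0.27 for *Cdk1*, -0.016 to 0.13 for *stg*, -0.58 to 0.13 for *twe*, -0.45 to 0.12 for *aurA* and -0.35 to 0.20 for *aurB*. None of these genes was called under any of these settings.

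No paired analysis was possible because the GAF and Mi-2 knockdown libraries share only replicate number 2.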
